A study of Caenorhabditis elegans with 12 samples.

Results

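The genes described here are 10 genes that act in the hermaphrodite germ line and the oocyte of Caenorhabditis elegans: the P granule genes pgl-1, pgl-3 and glh-1, the germ cell fate genes glp-1 and gld-1, and the oocyte genes oma-1, oma-2, puf-3, puf-5 and rme-2. They were taken by WormBase symbol from a count table of 46748 gene identifiers. All 10 were found, each under 1 identifier, and all 10 passed the filter on low counts that left 14611 genes for testing. RNA came from whole animals collected on adult day 6, after poly(A) selection and 50 bp single-end sequencing. Wild type N2 and the mutant sek-1(km4), a deletion allele of a kinase gene of the p38 immune pathway, were each fed ad libitum (AL, Escherichia coli OP50 at an optical density of 3) or restricted (DR, an optical density of 0.1), with 3 libraries in each of the 4 groups. Every group was raised at 20 °C, moved at the last larval stage or as young adults to plates with antibiotics and 100 mg/L of fluorodeoxyuridine (FUdR), an inhibitor of DNA synthesis used to stop progeny, and put in liquid with arrested bacteria on adult day 3, at 10 to 20 worms in each well. Germ cells were therefore exposed to FUdR in controls and mutants alike. The labels call the libraries biological replicates without naming separate cultures, so p-values measure the spread between these libraries.

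The adult hermaphrodite gonad is a tube in which germ cells divide at the distal end, enter meiosis and mature into oocytes at the proximal end. GLP-1 is the Notch receptor by which the somatic distal tip cell keeps distal germ cells dividing, and GLD-1 is an RNA-binding translational repressor that brings germ cells into meiosis and holds maternal mRNAs silent. PGL-1, PGL-3 and the Vasa-like RNA helicase GLH-1 build P granules, the RNA-protein bodies that sit on germ cell nuclei. OMA-1 and OMA-2 are zinc finger proteins that act redundantly in oocyte maturation, PUF-3 and PUF-5 are Pumilio-family repressors of maternal mRNAs, and RME-2 is the receptor through which oocytes take up yolk made in the intestine. In whole animals, fewer germ cells or oocytes and less RNA in each of them cannot be told apart.

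Total counts were 13673987 to 31675540 per library, of which ribosomal RNA took 32.63% to 50.95%. Levels are given as CPM (counts scaled to library size, with TMM factors), and 3 counts, the limit a count of 0 allows, correspond to 0.0947 to 0.219 CPM; this limit covers counting error only. N2_AL replicate 3 stood apart from its group, with r = 0.904 and 0.907 to the other N2_AL libraries across genes against 0.980 or more within each other group (genes are not independent replicates). It had relatively more of short and less of long transcripts. The mean within-group variance of log2 CPM over the tested genes was 0.720 in N2_AL and 0.113 to 0.148 in the other groups, so each pairwise comparison was fitted on its own 6 libraries. Results that involve N2_AL are given with and without that library. The sek-1 gene itself stood at 16.4 to 28.5 CPM in all libraries except N2_AL replicate 3 (3.71 CPM), and a count over the whole gene does not check the deletion.

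The members are highly expressed genes of the autosomes. Against a median of 7.03 CPM over the tested genes, the member with the lowest mean, pgl-3, was above 94.9% of them. The genes lie, in WBcel235 coordinates of the Ensembl annotation, on chromosome I (glh-1 at 6854478 to 6857536 and gld-1 at 7695681 to 7698222), II (puf-5 at 8575541 to 8577787), III (glp-1 at 9092241 to 9099698), IV (pgl-1 at 6974441 to 6977318, oma-1 at 8888976 to 8890999, puf-3 at 13510307 to 13512162 and rme-2 at 5470026 to 5473174) and V (pgl-3 at 4755979 to 4758587 and oma-2 at 8029439 to 8031214). None of the 10 is on X, which carries 14.3% of the tested genes. All 10 are annotated as protein coding, with exon lengths of 1546 nt (oma-2) to 4326 nt (glp-1) and a median of 2252 nt against 1378 nt over the tested genes. glp-1 shares 18 exonic bases with ZK507.1 on the other strand, and puf-3 has a close paralog, puf-11, with which it can share reads, so the separate values of that pair are uncertain.

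The P granule genes were highest in N2 and lowest in restricted sek-1(km4). pgl-1 stood at 463, 434 and 408 CPM in N2_AL replicates 1 to 3, at 432, 423.5 and 378 CPM in N2_DR, at 333, 299 and 217 CPM in sek1_AL, and at 246, 200.3 and 188 CPM in sek1_DR. Every N2 library was above every mutant library for pgl-1, and the libraries of the 2 diets overlapped in both genotypes. pgl-3 stood at 223, 213 and 255.5 CPM in N2_AL, at 209, 210.3 and 203 CPM in N2_DR, at 160.2, 143 and 98.3 CPM in sek1_AL and at 102, 80.0 and 76.6 CPM in sek1_DR. It was the only member that was not lower in N2_AL replicate 3 than in both other N2_AL libraries. glh-1 stood at 391, 325 and 197 CPM in N2_AL, at 406, 351 and 276 CPM in N2_DR, at 299, 272 and 194 CPM in sek1_AL and at 231, 198 and 186 CPM in sek1_DR. For glh-1 all 3 restricted mutant libraries lay under all 3 restricted N2 libraries, and the fed groups overlapped.

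The germ cell fate genes carried the widest spread in fed N2. The Notch receptor gene glp-1 stood at 318, 312 and 49.9 CPM in N2_AL, at 297, 287 and 238 CPM in N2_DR, at 215, 214 and 141 CPM in sek1_AL and at 192, 149.7 and 122 CPM in sek1_DR. The translational repressor gene gld-1 stood at 781, 738 and 189 CPM in N2_AL, at 766, 741 and 614 CPM in N2_DR, at 664, 614 and 437 CPM in sek1_AL and at 523, 409 and 367 CPM in sek1_DR. Both were far lower in N2_AL replicate 3 than in any other library, at 0.159 (glp-1) and 0.249 (gld-1) times the mean of the other N2_AL libraries.

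Among the oocyte genes, the restricted mutant was again the lowest group. The maturation factor gene oma-1 stood at 304, 303 and 191 CPM in N2_AL, at 306, 304 and 289 CPM in N2_DR, at 229.9, 219 and 166 CPM in sek1_AL and at 171, 152 and 139 CPM in sek1_DR. Its partner oma-2 stood at 588, 588 and 282 CPM in N2_AL, at 553, 576 and 621 CPM in N2_DR, at 493, 469 and 363 CPM in sek1_AL and at 319.6, 262 and 225 CPM in sek1_DR. For oma-2, but not for oma-1, every restricted mutant library was below every fed mutant library. The Pumilio-family gene puf-3 stood at 398, 391.5 and 208 CPM in N2_AL, at 437.5, 421 and 455 CPM in N2_DR, at 310.2, 292 and 234 CPM in sek1_AL and at 203, 170.0 and 155 CPM in sek1_DR. Restricted libraries were all above fed ones in N2 and all below fed ones in the mutant for this gene. Its relative puf-5 stood at 1035, 969 and 901 CPM in N2_AL, at 1051, 1019 and 1024 CPM in N2_DR, at 751, 707.5 and 534 CPM in sek1_AL and at 524, 406 and 376 CPM in sek1_DR. The yolk receptor gene rme-2 stood at 964, 901.5 and 559 CPM in N2_AL, at 993, 940.3 and 876 CPM in N2_DR, at 728, 678 and 442 CPM in sek1_AL and at 486.5, 370.3 and 315.5 CPM in sek1_DR. The puf-5 libraries separated by genotype on both diets and by diet in the mutant, whereas fed and restricted mutant libraries overlapped for rme-2.

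**Figure D1:**
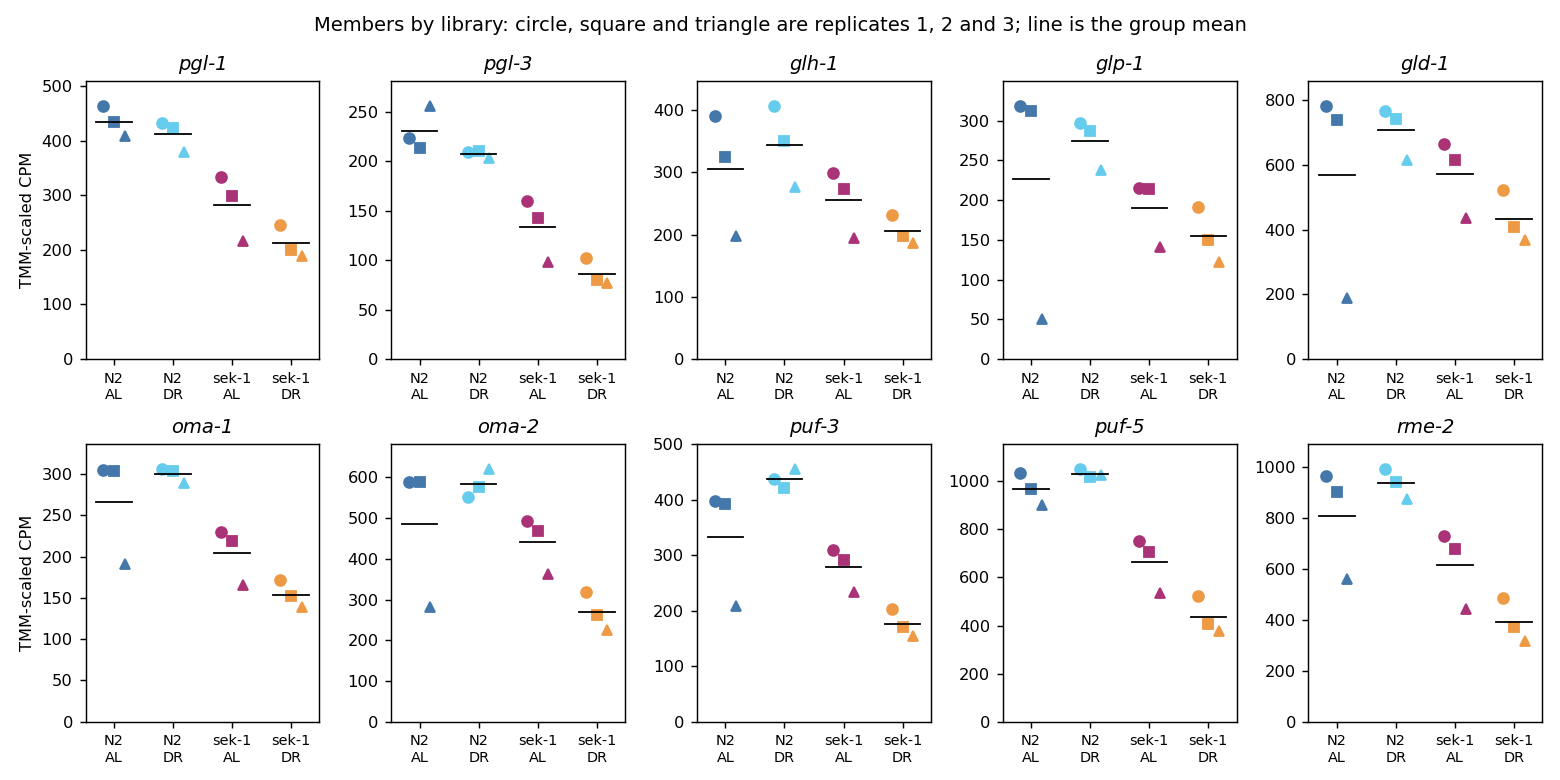
TMM-scaled CPM of the 10 genes in each of the 12 libraries, on linear axes that start at 0, with 1 symbol for each library and a line at the mean of the 3 libraries of a group. In all 10 panels the 3 restricted mutant libraries lie below the 3 restricted N2 libraries, and the triangle of N2 AL (replicate 3) lies far under its group for glp-1 and gld-1.

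Compared per length, as CPM per kb of exon, puf-5 was the most abundant member in every group, from 498 ± 8.22 (SD, n = 3) in N2_DR to 210.4 ± 37.95 in sek1_DR, and glp-1 the least, from 63.3 ± 7.325 in N2_DR to 35.7 ± 8.14 in sek1_DR. In N2_DR, oma-2 (377 ± 22.3), rme-2 (327 ± 20.4) and gld-1 (319 ± 36.7 CPM per kb) came next, and rme-2 and gld-1 differed by less than their SD. puf-3 (252 ± 9.79) was followed by oma-1 (166 ± 5.22) and pgl-1 (165 ± 11.6 CPM per kb), which were not separated by their spread, then by glh-1 (124 ± 23.6) and pgl-3 (90.8 ± 1.63 CPM per kb). In sek1_DR the order was that of N2_DR except for gld-1 (195 ± 36.4), which stood above oma-2 (174 ± 30.9) and rme-2 (136 ± 30.5 CPM per kb); the gap to oma-2 was within their SD.

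Within each mutant group the members moved together from library to library, and less evenly so in N2. Replicate 1 held the highest level of all 10 members and replicate 3 the lowest of all 10, both in sek1_AL and in sek1_DR. Among N2_DR libraries replicate 3 was lowest for 7 of 10 members and highest for 2, oma-2 and puf-3. In N2_AL replicate 3 was lowest for 9 of 10 and highest for 1, pgl-3. Coefficients of variation in N2_DR ran from 1.65% (puf-5) to 18.95% (glh-1), and in sek1_AL from 14.2% (puf-3) to 24.8% (rme-2).

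Together the 10 genes made up 0.799%, 0.797% and 0.486% of the counts outside ribosomal RNA in fed N2. The restricted N2 libraries held 0.830%, 0.816% and 0.795%. In the mutant these shares were 0.667%, 0.669% and 0.526% when fed and 0.525%, 0.441% and 0.410% when restricted. This share rests on no TMM scaling. The 3 sek1_DR libraries were below all libraries of the other groups except N2_AL replicate 3, which was below the highest of them. The mean share was 0.694% ± 0.18 (SD, n = 3) for fed and 0.814% ± 0.0174 for restricted N2, against 0.621% ± 0.082 for the fed and 0.458% ± 0.0596 for the restricted mutant.

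**Figure D2:**
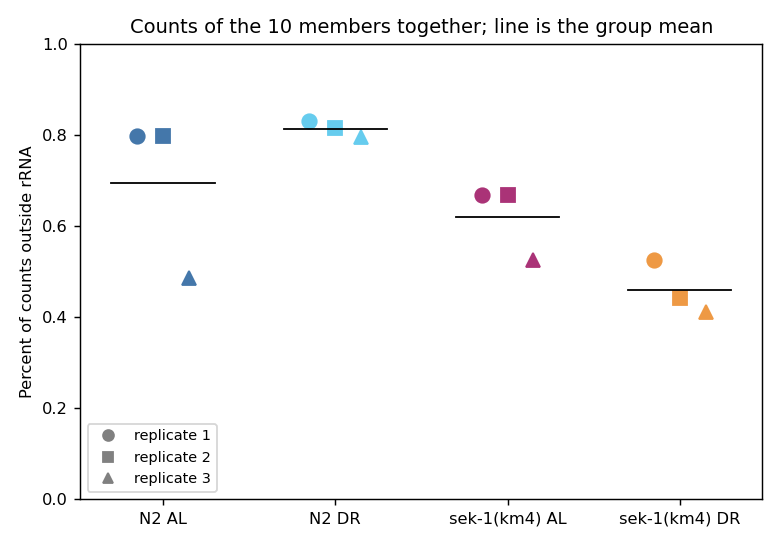
Counts of the 10 genes together as a percentage of all counts outside ribosomal RNA, by library (symbols mark replicates 1 to 3) and group, with a line at the group mean. Restricted N2 libraries sit at 0.795% to 0.830% and restricted sek-1(km4) libraries at 0.410% to 0.525%, with N2 AL (replicate 3) at 0.486%.

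The comparison of genotypes under DR asked how restricted worms differ without SEK-1. All 10 genes were lower in restricted sek-1(km4) than in restricted N2, to between 0.402 times (puf-3) and 0.613 times (gld-1) the N2 level. All 10 of 10 passed at an adjusted p under 0.05 by edgeR's quasi-likelihood test with Benjamini-Hochberg adjustment over 14611 genes, where 27.4% of all tested genes were called lower and 35.0% higher. With offsets for exon length the split of calls over all genes turned from 5109 higher and 4001 lower to 3684 and 5896, and the 10 members were still called lower. The members' median log2 fold change was −1.04, against 0.17 over all tested genes, and 4.68% of the tested genes lay below the members' median. In each of the 10 the 3 mutant libraries were below the 3 N2 libraries, a separation seen in this direction for 29.9% of tested genes.

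The lowest values in this comparison were those of puf-3, pgl-3, rme-2, puf-5 and oma-2, and oma-1 was level with pgl-1. Log2 fold changes were −1.31 ± 0.11 (SE, n = 3 per group, edgeR adjusted p = 3.39e-05) for puf-3, −1.24 ± 0.13 (8.27e-05) for puf-5, −1.26 ± 0.15 (0.000159) for rme-2, −1.12 ± 0.13 (0.000134) for oma-2 and −0.96 ± 0.10 (6.97e-05) for oma-1. The P granule genes pgl-3 and pgl-1 stood at −1.27 ± 0.115 (4.35e-05) and −0.96 ± 0.12 (0.000169). The helicase gene glh-1 (−0.75 ± 0.14, edgeR adjusted p = 0.00182) and the germ cell fate genes glp-1 (−0.825 ± 0.16, 0.00176) and gld-1 (−0.71 ± 0.145, 0.00251) had smaller falls. Their 95% intervals (−1.07 to −0.42, −1.18 to −0.47 and −1.03 to −0.38) lay apart from that of puf-3 (−1.57 to −1.06) only for gld-1, and differences between members were not tested. With a spread shared by all 12 libraries, 8 of 10 passed, at 14.6% of genes called lower, and glp-1 (adjusted p = 0.210) and gld-1 (0.194) did not.

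The comparison of genotypes under full food asked whether the mutant already differed when fed. With all 6 libraries 0 of 10 members passed by edgeR, where 1.34% of all genes were called lower and 5.78% higher. An unadjusted edgeR p under 0.05 was found for 2 of 10 members and for 3202 of the 14611 tested genes. DESeq2 called 2 of 10 lower, at 5.06% of genes. Over all genes the calls were 845 higher and 196 lower, and 1029 and 1254 with offsets for exon length. Values ran from −0.79 ± 0.27 (pgl-3, edgeR adjusted p = 0.147) and −0.62 ± 0.26 (pgl-1, 0.227) to 0.01 ± 0.53 (gld-1, 0.996). Every fed mutant library was below every fed N2 library for pgl-1, pgl-3 and puf-5, 3 of 10 members, a separation in this direction for 13.8% of tested genes. Without N2_AL replicate 3, 8 of 10 members were called lower, against 16% of 14847 genes tested, and the members' median log2 fold change went from −0.32 to −0.58 (over all genes 0.115).

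In the fit without that library the P granule genes pgl-3 (−0.71 ± 0.18 SE, edgeR adjusted p = 0.00755), pgl-1 (−0.67 ± 0.18, 0.0109) and glh-1 (−0.49 ± 0.18, 0.0455) were called lower in the fed mutant. So were the Notch receptor gene glp-1 (−0.73 ± 0.18, 0.00627) and the oocyte genes oma-1 (−0.57 ± 0.16, 0.0129), puf-3 (−0.505 ± 0.16, 0.0225), puf-5 (−0.60 ± 0.19, 0.0233) and rme-2 (−0.60 ± 0.21, 0.0358). gld-1 (−0.41 ± 0.19, 0.101) and oma-2 (−0.42 ± 0.17, 0.0673) did not pass.

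DR in sek-1(km4) asked what diluted food did in the mutant. Of the 10 members 4 fell and 0 rose, against 8.80% of all tested genes called lower and 6.13% higher. oma-2 fell by 0.72 ± 0.16 on the log2 scale (SE, n = 3 per group, edgeR adjusted p = 0.0216), puf-3 by 0.66 ± 0.14 (0.0185), puf-5 by 0.61 ± 0.17 (0.0392) and pgl-3 by 0.63 ± 0.18 (0.0455), to 0.609 to 0.655 times the fed level. The 3 oocyte genes among them had no overlap between fed and restricted libraries, as had 18.8% of tested genes in this direction. rme-2 (−0.66 ± 0.21, edgeR adjusted p = 0.0630), oma-1 (−0.41 ± 0.14, 0.0723), pgl-1 (−0.42 ± 0.17, 0.113), gld-1 (−0.40 ± 0.18, 0.155), glh-1 (−0.315 ± 0.16, 0.198) and glp-1 (−0.30 ± 0.20, 0.324) did not pass. All 10 values were negative, with a median of −0.51 against 0.01 over all tested genes. The calls and the size of the folds depended on single libraries. Leaving out 1 library of this comparison kept all 10 values negative, and 0 of 10 passed without sek1_AL replicate 1, sek1_AL replicate 2, sek1_DR replicate 2 or sek1_DR replicate 3, where 0.452%, 0.523%, 0.246% and 3.31% of genes were called lower and the members' median was −0.445, −0.504, −0.518 and −0.433. Without sek1_AL replicate 3, 9 passed (17.4% of genes), with a median of −0.722. Without sek1_DR replicate 1, 5 passed (9.29% of genes), with a median of −0.671. With a spread shared by all 12 libraries 0 of 10 passed, at 0.281% of genes. With both libraries numbered 3 left out, a choice made after seeing that these were the lowest of their groups, all 10 passed, where 16.6% of 14411 genes were called lower.

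DR in wild type asked the same in N2. Here 0 of 10 members were called, at 0% of all genes by edgeR (1063 genes at an unadjusted p under 0.05, of which 0 were members), and DESeq2 called 0 of 10, at 0.349% of genes higher and 0.794% lower. The restricted libraries lay all below the fed ones for pgl-3 and all above for puf-3, separations seen for 8.84% and 6.82% of tested genes. With all libraries, values ran from −0.15 ± 0.22 (SE, pgl-3) to 0.40 ± 0.31 (puf-3, edgeR adjusted p = 0.831), and 8 of 10 were positive. Without N2_AL replicate 3, 7 of 10 were negative and all were small, from −0.20 ± 0.11 (glp-1, edgeR adjusted p = 0.533) to 0.15 ± 0.09 (puf-3, 0.553), with a median of −0.04; 0.539% of genes were then called lower and 0.290% higher. In that fit the 95% intervals were −0.21 to 0.17 for oma-1, −0.23 to 0.21 for oma-2, −0.18 to 0.27 for puf-5 and −0.23 to 0.25 for rme-2. The intervals of glp-1 (−0.46 to 0.06) and glh-1 (−0.44 to 0.32) reached lower. Whether diet effects differ between the genotypes is tested by the interaction.

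**Figure D3:**
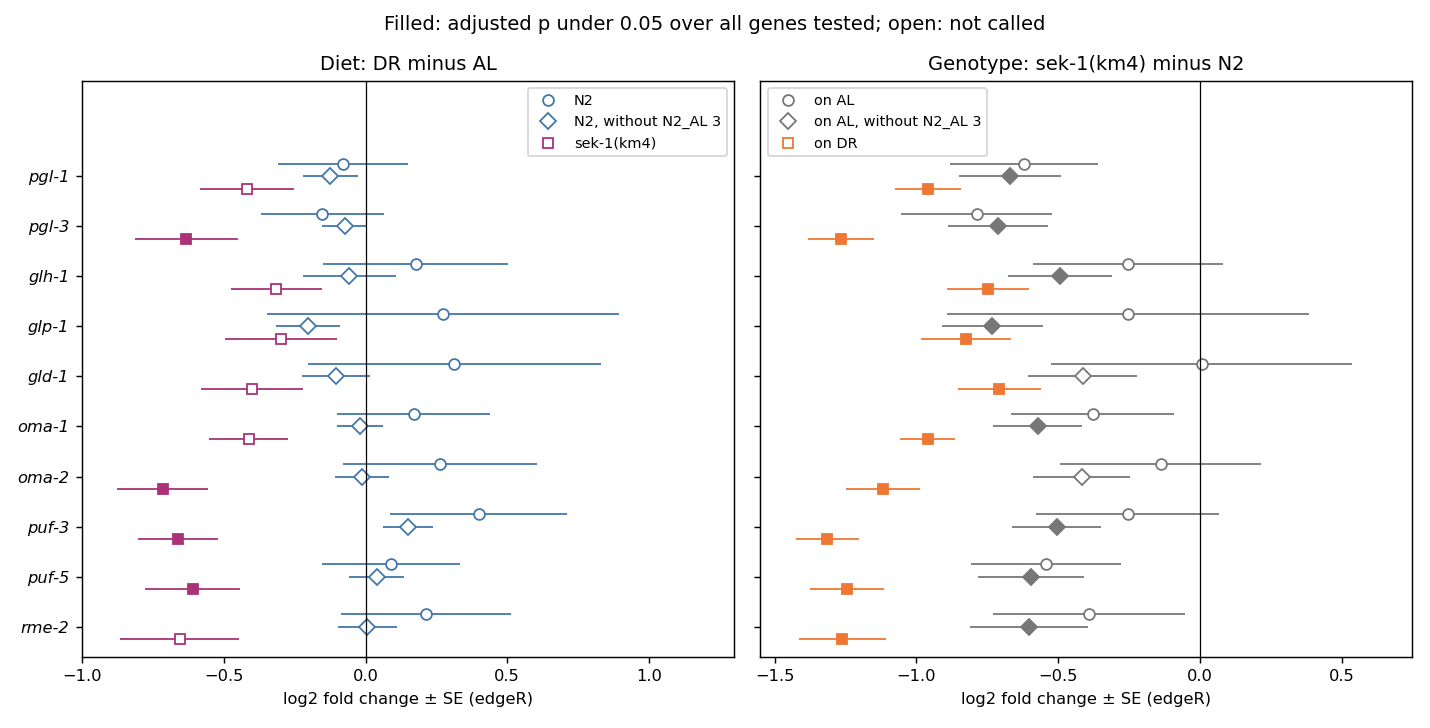
Log2 fold changes with SE for diet in each genotype (left) and for genotype on each diet (right), for the 10 genes, with all libraries of a comparison or, as diamonds, without N2_AL replicate 3; filled symbols passed at an adjusted p under 0.05. All 10 values are filled for genotype on DR (−1.31 to −0.71) and 4 of 10 for diet in sek-1(km4), while none is filled for diet in N2.

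The difference between these diet effects is the genotype by diet interaction, which was fitted on all 12 libraries. All 10 estimates were negative, with a median of −0.64 against 0.08 over all tested genes, and 0 of 10 passed by edgeR, as did 0% of all genes. At an unadjusted p under 0.05 there were 4 members (1303 genes in all), and DESeq2 called 0 of 10, at 0.151% of genes lower. The 4 members with an unadjusted p under 0.05 were oocyte genes: puf-3 at −1.06 ± 0.35 (SE, edgeR adjusted p = 0.530, 95% interval −1.82 to −0.30), oma-2 at −0.98 ± 0.39 (0.547), rme-2 at −0.87 ± 0.38 (0.554) and puf-5 at −0.70 ± 0.285 (0.550). gld-1 (−0.71 ± 0.59), oma-1 (−0.58 ± 0.30), glp-1 (−0.57 ± 0.71), glh-1 (−0.49 ± 0.38), pgl-3 (−0.48 ± 0.285) and pgl-1 (−0.34 ± 0.28) had adjusted p of 0.579 to 0.794 by edgeR.

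The count of members called for the interaction depended on the setting. Without N2_AL replicate 3, 0 of 10 passed, with puf-3 at −0.81 ± 0.19 (edgeR adjusted p = 0.143), oma-2 at −0.71 ± 0.21 (0.216) and glp-1 at −0.10 ± 0.27 (0.889), and 0.0202% of genes were called lower. With limma in place of edgeR and weights for the quality of every library, 6 of 10 passed as lower, against 6.13% of genes. Without all libraries numbered 3, 6 of 10 passed as lower, against 2.34% of genes. In both of these fits the 6 were pgl-3, oma-1, oma-2, puf-3, puf-5 and rme-2. The germ cell fate genes glp-1 and gld-1, with pgl-1 and glh-1, passed in neither. Leaving out any 1 library gave 0 of 10.

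N2_AL replicate 3 did not lower the members evenly. Over the tested genes, the median log2 ratio of this library to the other N2_AL libraries was 1.12 for exon lengths under 1000 nt, 0.12 from 1000 to 2000 nt, −0.61 from 2000 to 3000 nt and −1.18 from 3000 nt. glp-1, the longest member at 4326 nt, had 0.159 times the level of the other libraries. Length did not order the rest: gld-1 (2219 nt) stood at 0.249 times, while pgl-3 (2285 nt), puf-5 (2069 nt) and pgl-1 (2492 nt) stood at 1.17, 0.899 and 0.909 times. The part of transcript length in the values of this library was not tested beyond the fit with length offsets, in which 4 of 10 members (pgl-1, pgl-3, puf-5 and rme-2) were called lower in the fed mutant, at 8.58% of genes.

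**Figure D4:**
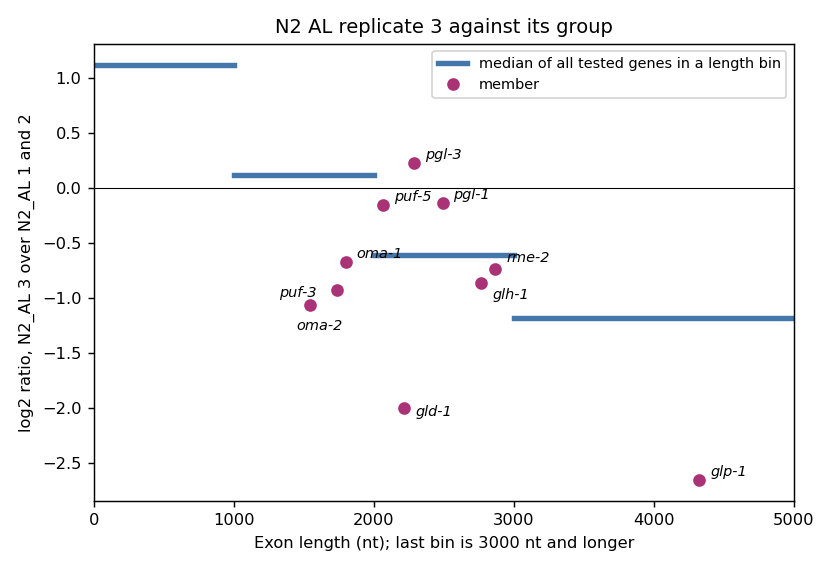
Log2 ratio of N2_AL replicate 3 to the mean of N2_AL replicates 1 and 2 against exon length, for the 10 genes (points) and as the median of all tested genes in 4 length bins (bars). glp-1 and gld-1 lie lowest, at 0.159 and 0.249 times, and pgl-3 is the only member above 0.

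Other genes of germ cells and oocytes were lower in the restricted mutant too. The lists used here leave the 10 members out. Of 18 other germ granule genes 16 were lower in restricted sek-1(km4) than in restricted N2 by edgeR and 0 higher, with a median log2 fold change of −0.735, where 27.4% of all tested genes were called lower. With a spread shared by all 12 libraries 9 of the 18 were called lower, against 14.6% of all genes. Among them were the Vasa-like helicase gene glh-2 (−1.47 ± 0.14 SE, adjusted p = 5.3e-05), car-1 (−1.28 ± 0.12, 4.65e-05) and mip-1 (−1.10 ± 0.11, 6.05e-05), for a binding partner of GLH-1 in P granules. Of 17 other genes of germ cell proliferation and meiotic entry 14 were lower and 1, rnp-9, higher (median −0.67), including the GLD-1 repressor gene fbf-1 (−1.15 ± 0.14), which has a close paralog in fbf-2, and sygl-1, a target of GLP-1 signalling (−0.73 ± 0.09).

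Meiotic and late oocyte genes followed the same direction. Of 26 genes of meiotic chromosome pairing and recombination 25 were lower (median −0.91), such as the axis gene htp-1 (−0.99 ± 0.095 SE, a close paralog of htp-2), the kinase gene plk-2 (−1.004 ± 0.10) and msh-5 (−1.16 ± 0.12), while the synaptonemal gene syp-1 stood at 0.03 ± 0.09 (edgeR adjusted p = 0.807). Of 14 other oocyte and maternal RNA regulators all 14 were lower (median −0.75), with puf-11, the close paralog of puf-3, at −1.33 ± 0.12 (edgeR adjusted p = 3.66e-05). Eggshell genes, which are expressed in late oocytes, had 14 of 15 lower (median −1.18), with egg-3 at −1.31 ± 0.12 and egg-1 at −1.33 ± 0.13. With the shared spread the lower calls were 6 of 17 for proliferation and meiotic entry, 23 of 26 for meiotic genes, 9 of 14 for oocyte regulators and 13 of 15 for eggshell genes. The yolk protein genes, expressed in the intestine and the source of the ligand of RME-2, had 0 of 6 called (median −0.44).

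Under DR in the mutant the germ line and eggshell lists had fewer calls, read against 8.80% of all tested genes called lower, and the yolk list had more. With a spread shared by all 12 libraries 0 genes of these 6 lists were called. Meiotic genes had 15 of 26 fall and 0 rise (median −0.41), led by him-3 (−0.575 ± 0.09 SE, edgeR adjusted p = 0.00731) and syp-2 (−0.57 ± 0.09, 0.0091). Eggshell genes had 7 of 15 fall (median −0.57), such as gna-2 (−0.51 ± 0.10), egg-3 (−0.66 ± 0.15) and egg-2 (−0.66 ± 0.16). Oocyte and maternal RNA regulators had 4 of 14 fall (median −0.39), with puf-8 (−0.53 ± 0.10), puf-11 (−0.69 ± 0.15) and puf-7 (−0.53 ± 0.14, a close paralog of puf-6). Germ granule genes had 3 of 18 fall (median −0.355), namely mip-1, car-1 and cgh-1, and genes of proliferation and meiotic entry 2 of 17 (median −0.36), namely fog-1 (−0.825 ± 0.17) and daz-1 (−0.62 ± 0.17). The counts of these last lists are near the share over all genes. The yolk protein genes vit-3 (−1.66 ± 0.35), vit-4 (−1.554 ± 0.35) and vit-1 (−1.15 ± 0.28) fell, 3 of 6. Of these, vit-3 and vit-4 share near-identical sequence and are uncertain as separate values. In N2 under DR none of the genes of these 6 lists was called by edgeR, with or without N2_AL replicate 3, where 0% of all genes and, without that library, 0.539% lower and 0.290% higher were called. The yolk protein genes nevertheless had negative medians in N2. These were −0.77 with all libraries and −1.13 without N2_AL replicate 3, against −1.02 in the mutant. For the interaction 0 of the 6 yolk genes were called in either fit, so a fall particular to the mutant was not shown.

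**Figure D5:**
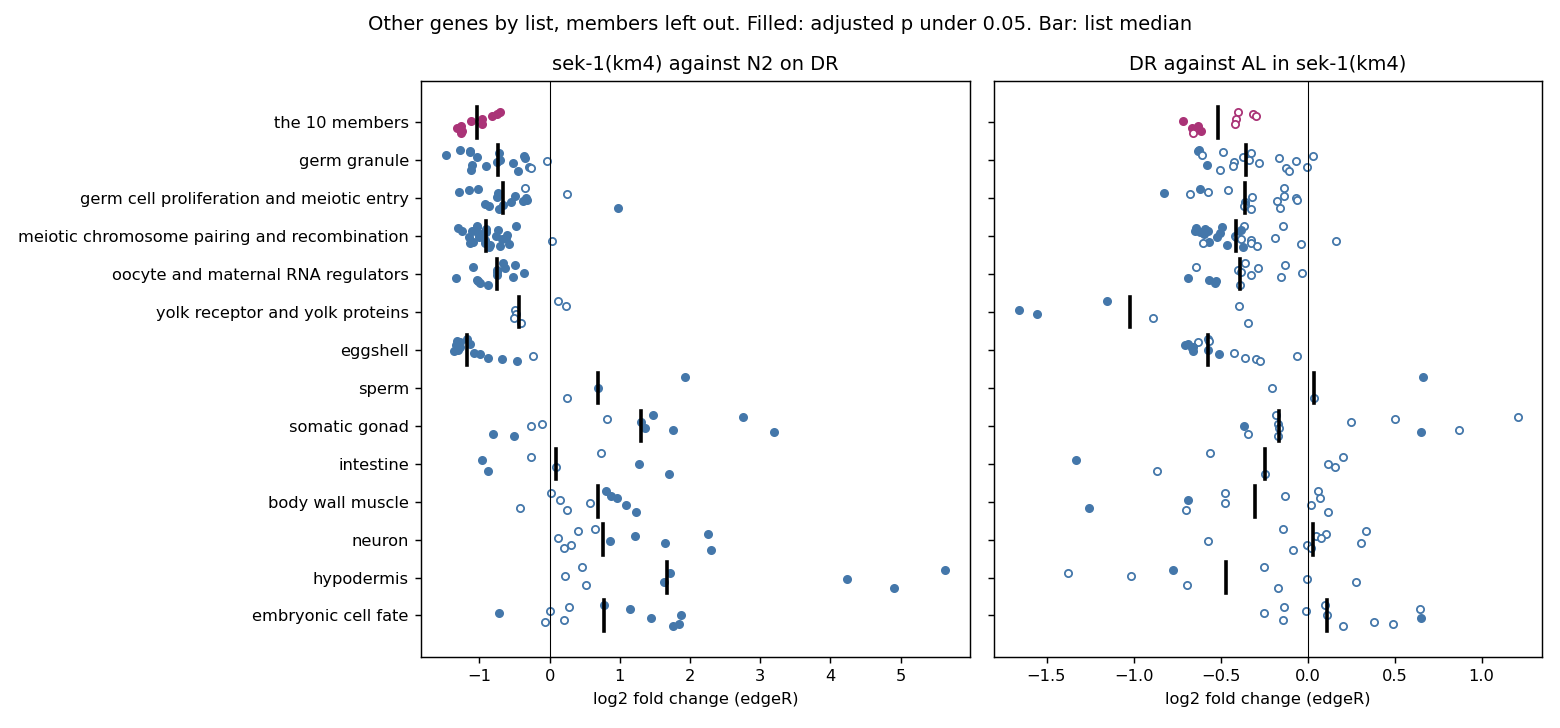
Log2 fold changes of the 10 members and of other genes by list, for sek-1(km4) against N2 on DR (left) and for DR against AL in sek-1(km4) (right), each point 1 gene, filled where the adjusted p was under 0.05, with a bar at the list median. Germ line and eggshell lists have medians of −0.67 to −1.18 on the left, against 0.69 to 1.67 for muscle, neuron, hypodermis and somatic gonad.

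Counts of marker genes of other tissues in the restricted mutant are read against 35.0% of all tested genes called higher and 27.4% called lower. Of 11 somatic gonad genes 6 were higher and 2 lower in restricted sek-1(km4) (median 1.31). The list moved both ways. Its gene lim-7, of the gonadal sheath, stood at 2.61 ± 0.83 (SD, n = 3) CPM in N2_DR and 23.9 ± 0.69 CPM in sek1_DR. In the other direction, lin-3 was called lower (−0.81 ± 0.10 SE, edgeR adjusted p = 0.000186), at 44.3 ± 1.92 (SD, n = 3) and 25.2 ± 0.91 CPM. The libraries of inx-9 ran from 14.2 to 17.3 CPM in N2_DR and from 12.6 to 13.6 CPM in sek1_DR. The hypodermal list had 5 of 8 higher (median 1.67), and its collagen gene dpy-7 went from 1.00 ± 0.011 to 18.8 ± 5.885 CPM. Neuron genes had 5 of 10 higher (median 0.75), body wall muscle 5 of 10 (median 0.69) and intestine 2 higher and 2 lower of 7 (median 0.10). Of 11 embryonic cell fate genes tested 6 were higher and 1 lower (median 0.77), among them tbx-37 (0.88 ± 0.14 CPM in N2_DR, 3.17 ± 0.41 CPM in sek1_DR) and pes-10 (0.90 ± 0.22 and 3.335 ± 0.40 CPM). Summed over each list, the ranges were 214 to 258 CPM in N2_DR and 203 to 240 CPM in sek1_DR for somatic gonad. They were 32.3 to 74.7 and 72.7 to 123.5 CPM for hypodermis, and 152 to 172 and 134 to 164 CPM for embryonic fate. For intestine they were 502 to 976 and 400 to 1114 CPM. The sums did not overlap for body wall muscle (499 to 864 and 1043 to 1144 CPM) or neuron (174 to 179 and 205 to 226.5 CPM), and were higher in the mutant. In N2_DR 2 of the 14 listed embryonic genes had no count. The part of these tissues in the lower shares of germ line transcripts was not tested.

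Counts of the listed sperm genes were low in every group. Many of them are genes of the msp family, which can share reads, so low counts do not show that their transcripts were scarce. Of 24 listed sperm genes 3 passed the filter, and together these stood at 3.26 to 5.145 CPM in N2 libraries and 6.865 to 10.02 CPM in mutant libraries. The sperm gene fer-1 was higher in the restricted mutant (1.93 ± 0.22 SE on the log2 scale, edgeR adjusted p = 0.000107), at 6.66 ± 0.55 (SD, n = 3) against 1.75 ± 0.37 CPM. This is the direction opposite to that of the 10 members.

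The genes whose log2 CPM went most closely with the mean of the 10 members over the 12 libraries, out of 7915 with a mean of at least 5 CPM, were cpg-1 (r = 0.996), egg-4 (0.996), cpg-4 (0.995), egg-5 (0.994) and hpo-40 (0.9935). cpg-1 encodes a chondroitin proteoglycan of the eggshell, and egg-4 and egg-5 are near-identical genes for pseudophosphatases of the egg, uncertain as separate values. Since they were chosen for following the members, their log2 fold changes for sek-1(km4) against N2 on DR, from −1.36 (egg-5) to −1.09 (hpo-40), are a description. Among the members themselves, r with the mean of the other 9 was highest for oma-1 (0.989), rme-2 (0.985) and puf-3 (0.974) and lowest for glp-1 (0.691), gld-1 (0.727) and pgl-3 (0.745), the genes that stood farthest from the others in N2_AL replicate 3. These are descriptions over libraries that fall into 4 groups and share their scaling.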

How the data were processed

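Whole animals of 4 groups gave 12 libraries, 3 in each group. The deposited values are raw counts of reads for each gene, made by the authors using featureCounts from Subread according to the labels' list of tools. No source used here names the aligner, build, annotation or strand setting, so overlapping genes on opposite strands may not be told apart. Symbols were matched for 43693 of 46748 identifiers, and locations and exon lengths for 46449 in the Ensembl annotation of WBcel235. No 2 libraries held identical counts. Ribosomal RNA was taken as 22 annotated genes and a pseudogene in the repeat.

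Counts were filtered with filterByExpr (minimum count 10) and scaled by TMM over all 12 libraries, then tested with edgeR 4.0.16 in R 4.3.3 (quasi-likelihood, robust). Each pairwise comparison used its own 6 libraries with no replicate term, and the interaction used all 12. Genes were called at a Benjamini-Hochberg adjusted p under 0.05 over all tested genes. SE was obtained from the fold change and its F statistic, and 95% intervals from the t quantile that matches the p. Alternatives used DESeq2 1.42.0, limma 3.58.1 (voom with library quality weights), RLE factors, no filter, exon length offsets, removal of ribosomal RNA, 1 fit over all libraries, a replicate block and leaving out libraries. The scripts were tested on simulated data. Precision is limited by 3 libraries per group.

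The members, the lists and the layout of the fits were chosen with earlier results of these data known. Apart from the members, the named genes are, for each list and comparison, taken from up to 3 called genes with the smallest p, and the 5 genes most like the members; rnp-9 and syp-1 were named after their values were seen. The listed symbol opt-2 had no match, and ssp-9 had several identifiers and was left out.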

Additional observations from a re-analysis of the deposited data

Results flagged for a closer look

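For puf-3, every restricted library was above every fed library in N2 and below every fed library in sek-1(km4), a pattern seen in no other member. The difference between the diet effects was −1.06 on the log2 scale (SE 0.35) and did not pass by edgeR (adjusted p = 0.530). Without N2_AL replicate 3 it was −0.81 ± 0.19 (edgeR adjusted p = 0.143). The close paralog puf-11, which can share its reads, had the same pattern. It ran from 339.3 to 349.4 CPM in N2_DR against 137.3 to 338.7 CPM in N2_AL. In the mutant it ran from 121.8 to 161.7 CPM in sek1_DR against 181.2 to 250.3 CPM in sek1_AL. Each separation alone was seen for 6.82% (N2) and 18.8% (mutant) of tested genes, and the share with both was not computed.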

How the results depend on the processing

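For sek-1(km4) against N2 on DR, all 10 members were called under each alternative except 1 fit over all 12 libraries (8, at 14.6% of genes called lower). Under the others, 14.2% (no filter) to 40.4% (exon length offsets) of genes were called lower. Relative to the median of all genes the members' median was −1.21, and −1.24 with exon length offsets, which moved the median of all genes from 0.17 to −0.16. For DR in sek-1(km4), 4 members were called in the main setting, where 8.80% of genes were called lower. The counts were 8 with no filter (6.08% of genes), 10 with the replicate block (18.9%), 10 with quality weights (23.4%) and 7 with exon length offsets (13.6%). They were 0 in 1 fit over all 12 libraries (0.281%) and 10 without all libraries numbered 3 (16.6%), a setting chosen after seeing the data. Leaving out 1 library gave 0 to 9, at 0.246% to 17.4% of genes. For genotype on AL, 0 were called in the main setting, where 1.34% of genes were called lower. The counts were 2 by DESeq2 (5.06% of genes), 7 with quality weights (13.9%) and 4 with length offsets (8.58%). They were 1 in 1 fit over all 12 libraries (4.72%) and 9 without all libraries numbered 3 (19.8%). Leaving out 1 library gave 0 to 8, at 0.527% to 16% of genes. The interaction gave 6 with quality weights (6.13% of genes called lower) and 6 without all libraries numbered 3 (2.34%), and 0 under each other alternative. The cause of these changes was not tested.

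Values that changed sign were as follows. For DR in N2, pgl-1 was 0.026 with no filter, glp-1 −0.091 and oma-2 −0.015 with quality weights, and glp-1 −0.111, gld-1 −0.012 and oma-2 −0.06 without all libraries numbered 3. Leaving out 1 library gave ranges of −0.125 to 0.056 (pgl-1), −0.058 to 0.419 (glh-1), −0.202 to 0.606 (glp-1), −0.103 to 0.621 (gld-1), −0.02 to 0.298 (oma-1) and −0.012 to 0.441 (oma-2). For genotype on AL, gld-1 was −0.073 with RLE factors, −0.117 by DESeq2, −0.292 with quality weights, −0.321 with length offsets and −0.249 without all libraries numbered 3, and glp-1 was 0.102 with the replicate block. Leaving out 1 library gave −0.732 to 0.075 (glp-1), −0.413 to 0.311 (gld-1) and −0.417 to 0.036 (oma-2); without N2_AL replicate 3 glp-1 was called.

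The labels do not say whether same-numbered libraries share a culture or a day, so a pairing is neither given nor excluded. The correlation of their deviations from the group means was 0.036 to 0.094 for number 2 and 0.162 to 0.388 for numbers 1 and 3. Not every library correlated best with its own number. With the replicate block the members called were 0 for DR in N2 (0% of genes called lower) and 10 for DR in sek-1(km4) (18.9%). They were 0 for genotype on AL (1.15%), 10 for genotype on DR (30.6%) and 0 for the interaction (0.00684%).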
